A study of Mus musculus with 44 samples.

Results

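Binding of HA-tagged SMAD2 in mouse granulosa cells was mapped by CUT&RUN, an assay in which an antibody directs a nuclease to cut out the DNA around a bound protein. The data are the 4 peak lists made with the anti-HA antibody on Smad2HA/+ cells, on chromosomes 1 to 19 and X. The GDF9 lists held 60252 and 62931 peaks in replicates 1 and 2, and the vehicle lists 64461 and 63683. Together these are 251327 of the 1775188 peaks in the 32 lists of the series, which comprises 40 CUT&RUN and 4 RNA-seq samples. The GDF9 group was treated for 4 h with recombinant mouse GDF9, and the other group received vehicle. Both groups are primary granulosa cells of Smad2HA/+ females, 3 to 4 weeks old and primed with pregnant mare serum gonadotropin, on a mixed C57BL/6J × 129S5/SvEvBrd background, and the cells were cultured before treatment.

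Several features limit the model. The tag sits at the C-terminus of the protein made by one Smad2 allele, while the other allele makes SMAD2 that the HA antibody does not see, and no homozygous mice were obtained. Cells were pooled from several mice, and the sources used here do not say whether the 2 replicates of a group stem from different mice, so the spread behind a p-value may be technical. A treatment text naming GDF9 is attached to the vehicle samples as well, and the groups follow the titles and the treatment labels. IgG libraries were not used here.

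GDF9 is a growth factor of the TGF-β family that the oocyte secretes. It acts on the granulosa cells around the oocyte through type I and type II receptor kinases, and the type I receptor phosphorylates SMAD2 and SMAD3 at their C-terminus. These join SMAD4, enter the nucleus and act on genes together with other DNA-binding factors, and among their best-known targets are inhibitors of the same pathway, such as Skil and Smad7. In the follicle this route supports cumulus expansion, the swelling of the granulosa cell mass around the oocyte before ovulation. Full-length SMAD2 binds DNA poorly by itself and is thought to reach it largely through partners.

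The sequences below are matches to short motifs near the middle of HA peaks at genes on which the comparison turns. A region here is the union of all HA peaks that overlap by at least 1 bp, and its middle is that of the highest signal. A region with a peak in all 4 lists is called shared, one with a peak in both GDF9 lists and in no vehicle list GDF9-only, and the converse vehicle-only. Capitals in the first set mark the SMAD box CAGAC, and all sequences run 5′ to 3′ on the strand named (mm10, read from the RefSeq GRCm38 genome). At Skil and Nedd9 a site is given from each class of region that held one, so that shared and treatment-only places of 1 gene can be set side by side. The sites of the first set lay from 1 base (Nedd9, shared) to 136 bases (Skil, GDF9-only) from the middle. A printed stretch therefore need not include the middle.
Skil, shared promoter region, chr3:31094670-31094698, minus strand: cggtgcccggctCAGACaggatgttccct
Skil, GDF9-only region in an intron, chr3:31115173-31115201, minus strand: ttgacagatgtgCAGACatggaaacctct
Skil, vehicle-only region upstream, chr3:31090540-31090568, plus strand: tctgctcagggtCAGACaaaacttccttg
Nedd9, shared promoter region, chr13:41359006-41359034, plus strand: acagcccagatcCAGACcagcacggcgcg
Nedd9, GDF9-only region in an intron, chr13:41328367-41328395, minus strand: tttttttaaagcCAGACtgagttttcatt
Tgfbr1, GDF9-only region in an intron, chr4:47363321-47363349, plus strand: gtagccatctggCAGACatcatcaaagaa

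In the second set the capitals mark the AP-1 core TGANTCA, the motif bound by FOS and JUN proteins, because it was the searched motif that stood out most at the middle of shared HA regions away from promoters. The pairs at Tgif1 and Runx1 again come from a shared and a treatment-only region of the same gene. These sites lay from 3 bases (Runx1, vehicle-only) to 75 bases (Tgif1, shared) from the middle.
Tgif1, shared promoter region, chr17:70851624-70851652, plus strand: gcagcagcttcTGATTCAaggggtggggc
Tgif1, GDF9-only region upstream, chr17:70857413-70857441, plus strand: gcaaatagcccTGAATCAttttcactgaa
Runx1, shared region in an intron, chr16:92654851-92654879, plus strand: ttgagaatggcTGAATCActctcagagca
Runx1, vehicle-only region in an intron, chr16:92679789-92679817, plus strand: tggaattgcgaTGAATCAgaggaatcagg
Wt1, vehicle-only region in an intron, chr2:105162925-105162953, plus strand: ctggtaagaacTGAGTCAtgaggtgccga

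The cells carried the H3K27ac of granulosa cells at most of their markers, with 2 exceptions. This acetylated histone is found at promoters and enhancers in use, and its peaks lay at the start sites of 7 of 9 granulosa markers in all 4 H3K27ac lists of the same line. The exceptions were Fshr, the receptor for follicle-stimulating hormone, and Cyp19a1, the aromatase that makes estradiol, which had such a peak in none of the lists. Of the markers of other cells, 1 of 5 endothelial, 1 of 5 macrophage, 1 of 6 oocyte, 1 of 5 surface epithelial and 2 of 5 theca genes were marked in all 4 lists, and in the Smad3PA/PA cells sequenced alongside the theca genes Cyp17a1, Insl3 and Hhip had at most 2.01 normalized counts of RNA, while Ptch1 and Nr2f2 of the same list had 177 to 258. The granulosa markers Amh and Cyp19a1 were also at 2.90 normalized counts or less. RNA of the surface epithelial list summed to 2307 and 2398 normalized counts with GDF9, against 2237 and 2246 with vehicle, and its part in the results was not tested.

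Each list describes a peak by its total and its maximum signal, both in coverage scaled by the authors to reads of an E. coli spike-in, which serves as an internal standard. The total signal is the summed coverage of the peak, and the maximum signal is its highest point. All maxima below 100 fragments were whole multiples of 1 step, the worth of 1 DNA fragment (tolerance 0.05 of a step), so that heights can also be given in fragments. The step was 0.0485 and 0.0443 units with GDF9, against 0.0411 and 0.0358 with vehicle, which under this scaling stands for fewer spike-in fragments in both GDF9 libraries. A fragment therefore counted for more in both GDF9 lists than in both vehicle lists, and every comparison in deposited units carries that difference. Total mapped fragments per library were not given in the sources used here.

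The GDF9 lists held fewer but wider peaks. Peaks numbered 61592 ± 1894 in the GDF9 lists and 64072 ± 550 in the vehicle lists (SD, n = 2 each), and their median width was 1720 ± 59.4 bp with GDF9 and 1588 ± 24.7 bp with vehicle. Both GDF9 lists lay below both vehicle lists in number, and above them in median width, at 1762 and 1678 bp with GDF9, against 1570 and 1605 bp with vehicle. The bases covered overlapped between treatments, at 115 and 121 Mb with GDF9 and 113 and 116 Mb with vehicle (exact permutation test, two-sided, p = 0.667). For every measure whose groups did not overlap the exact permutation p was 0.333, the smallest that 2 lists against 2 can give.

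Median total signal was also higher with GDF9, at 360 and 366 units, against 275 and 249 units with vehicle. Median maximum signal was 0.583 and 0.753 units with GDF9, against 0.534 and 0.501 units with vehicle. In fragments the order was lost, since the median peak was 12 and 17 fragments high with GDF9 and 13 and 14 with vehicle. The lowest peaks had 5 fragments in each of the 4 lists.

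The lists were not cut at the same level. The smallest total signal that a peak could have was 287 and 261 units with GDF9, against 206 and 182 units with vehicle, which is 5919 and 5883 fragment-bases (coverage in fragments summed over bases) with GDF9, against 5025 and 5070 with vehicle. With only the peaks that reached the highest of these minima in fragment-bases, a restriction chosen after seeing the data, 60252 and 61995 peaks were left with GDF9, against 42460 and 44282 with vehicle. The median widths were then 1762 and 1685 bp with GDF9, against 1734 and 1766 bp with vehicle, and no longer separated the treatments. This minimum is that of GDF9 replicate 1, so the cut fell mostly on the vehicle lists. Total signal grows with width, so such a cut by itself lowers their number and raises their median width. The threshold was higher in both GDF9 lists, and its part in number and width was not tested.

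GDF9 replicate 1 stood apart from the other 3 lists. Its peaks met a peak of GDF9 replicate 2 in 43.1% of cases, of vehicle replicate 1 in 41.6% and of vehicle replicate 2 in 42.6%. Peaks of GDF9 replicate 2 met GDF9 replicate 1 in 40.5% of cases, but vehicle replicates 1 and 2 in 50.6% and 52.7%. The peaks of vehicle replicate 1 met those of vehicle replicate 2 in 49.5% of cases. Measured as bases shared over bases covered by either list (Jaccard index), the GDF9 replicates reached 0.201, the vehicle replicates 0.254, and GDF9 replicate 2 with vehicle replicates 1 and 2 reached 0.260 and 0.278. The replicates of a treatment therefore did not resemble each other more than lists of opposite treatments, and GDF9 replicate 2 was nearer to either vehicle list than to its own replicate.

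The 4 lists merged into 145517 regions, and most of these came from 1 list. A peak in a single list was the whole of 99509 regions (68.4%), of which GDF9 replicates 1 and 2 gave 28569 and 22426 and vehicle replicates 1 and 2 gave 25065 and 23449. Shared regions numbered 19406, or 13.3% of all. GDF9-only regions numbered 2106 (1.45%) and vehicle-only regions 2963 (2.04%). The pairs that mix treatments gave 2041 and 2108 regions for GDF9 replicate 1 with vehicle replicates 1 and 2, and 3336 and 4077 for GDF9 replicate 2 with the same vehicle lists. A GDF9-only region was thus about as frequent as any pair that held GDF9 replicate 1 and 1 vehicle list, and less frequent than the pairs of GDF9 replicate 2 with vehicle.

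**Figure D1:**
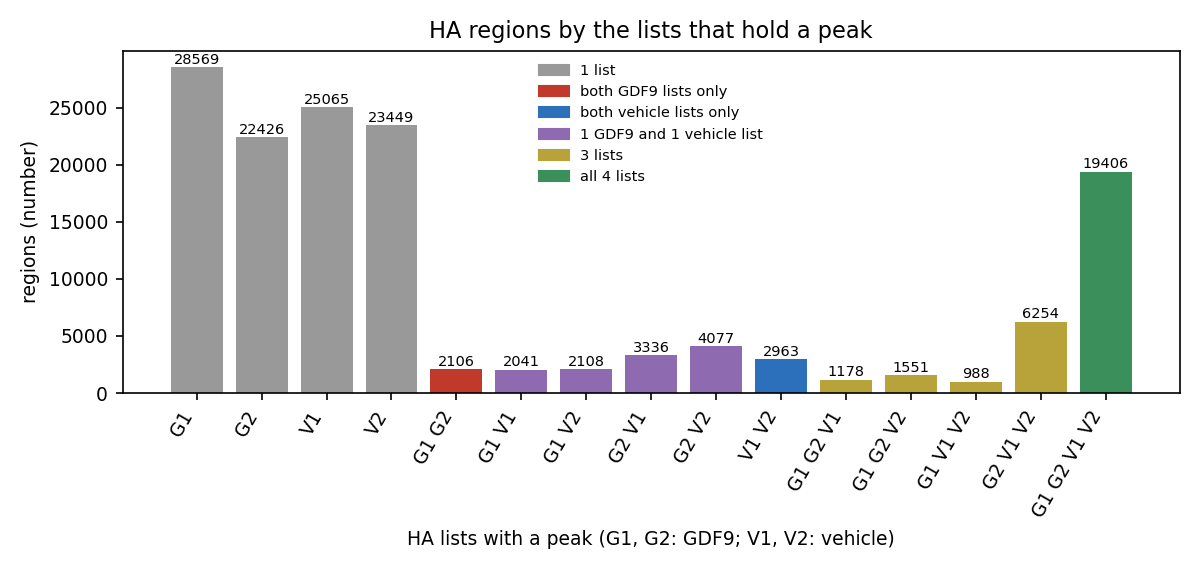
Number of HA regions (vertical axis) for each combination of lists that held a peak, with G1 and G2 for GDF9 replicates 1 and 2 and V1 and V2 for vehicle replicates 1 and 2. Single lists gave 22426 to 28569 regions each, all 4 lists 19406, and the GDF9 pair 2106, next to 2041 to 4077 for the pairs that mix treatments.

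Of the 24241 regions found in both GDF9 lists, 80.1% were also in both vehicle lists and 8.69% had no vehicle peak. Of the 29611 regions found in both vehicle lists, 65.5% were also in both GDF9 lists and 10.0% had no GDF9 peak. The excess of vehicle-only over GDF9-only regions changed with the cut applied, and the common minima took peaks mostly from the vehicle lists. At the common minimum in fragment-bases the counts were 2955 GDF9-only, 1125 vehicle-only and 17944 shared regions, and at a common minimum in deposited units 3777, 282 and 15160, so that the order of the treatment-only classes reversed. With the 50% of each list that had the highest maximum, 660 GDF9-only and 1427 vehicle-only regions remained beside 16738 shared ones. Without GDF9 replicate 1, 24787 regions of GDF9 replicate 2 had no vehicle peak, and 3995 regions of both vehicle lists had no peak in GDF9 replicate 2.

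Treatment-only regions were low peaks close to the threshold. In GDF9-only regions the median maximum was 11 and 12 fragments in GDF9 replicates 1 and 2, and in vehicle-only regions it was 12 fragments in each vehicle list. Their median totals were 1.19 and 1.20 times the lowest total of the list in GDF9-only regions, and 1.22 and 1.23 times in vehicle-only regions. Peaks of a single list were nearly as high, at 10 and 11 fragments with GDF9 and 10 fragments in each vehicle list. Shared regions reached 22 and 37 fragments with GDF9, against 28 and 29 fragments with vehicle. Shared peaks were wider than treatment-only ones in 3 of the 4 lists, with medians of 1762 and 1641 bp in GDF9-only regions, 1503 and 1507 bp in vehicle-only regions, and 1756, 1970, 1721 and 1850 bp in shared regions of GDF9 replicates 1 and 2 and vehicle replicates 1 and 2. Since the classes were made from the presence of peaks, these heights are descriptions.

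**Figure D2:**
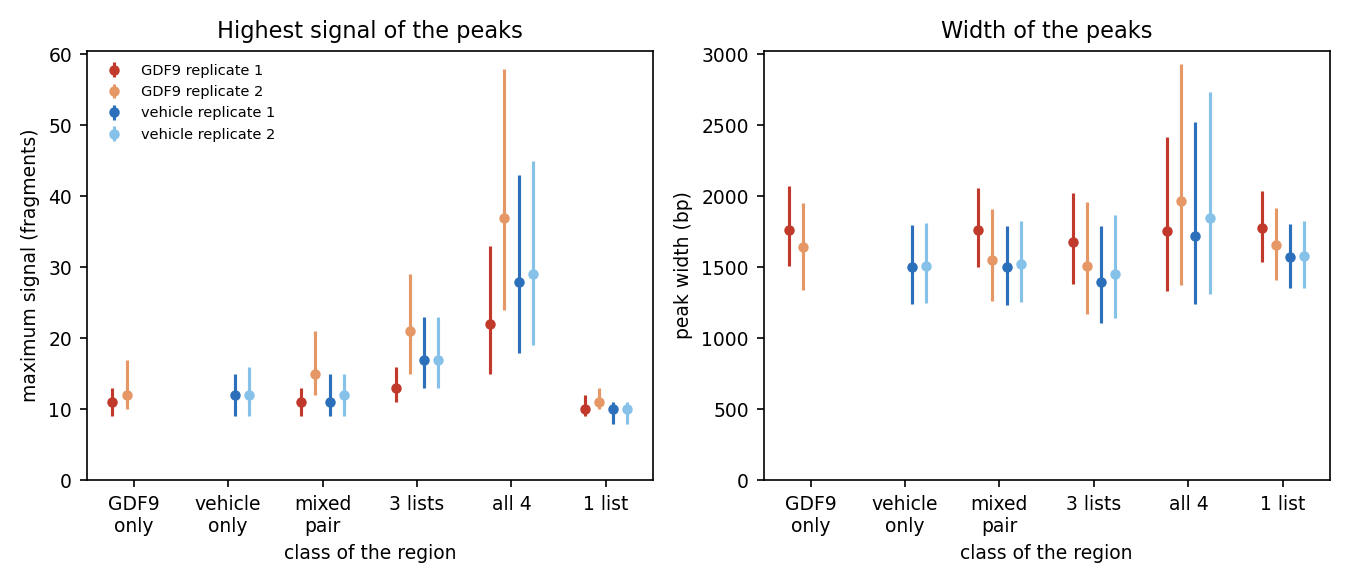
Maximum signal in fragments and width in bp of HA peaks by class of region and list, points at the median and lines over the middle 50% of peaks. GDF9-only and vehicle-only peaks sit at 11 or 12 fragments, close to peaks of a single list at 10 or 11, whereas shared peaks have medians of 22 to 37 fragments.

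Position and content are given as shares, without a test, since regions are not replicates of a treatment. A region counted as promoter when its middle was within 3 kb of a start site in GENCODE vM21. Promoters held 15.0% of GDF9-only, 17.0% of vehicle-only and 46.6% of shared regions, against 11.2% of the regions of a single list, and they cover 11.6% of the chromosomes. Introns held 44.2% and intergenic sequence 38.3% of the GDF9-only regions. The X chromosome carried 170 GDF9-only regions (8.07%), 140 vehicle-only regions (4.72%), 2.44% of the shared regions and 7.19% of those in a single list. Bases that the genome marks as repeats made up 26.8% of the windows in GDF9-only regions, 22.7% in vehicle-only regions, 15.0% in shared regions and 29.2% in regions of a single list. In promoter and repeat content the GDF9-only regions lay between the shared regions and those of a single list, and in their share on X they lay above both.

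H3K27ac and the native SMAD proteins followed the same order. A peak of H3K27ac in either list of GDF9-treated cells covered the middle of 41.4% of GDF9-only, 53.8% of vehicle-only and 83.4% of shared regions, against 26.0% of the regions of a single list. In the H3K27ac lists of vehicle-treated cells the shares were 41.0%, 51.6% and 80.6%. The places occupied in the HA lists of GDF9-treated cells alone were therefore marked by H3K27ac about as often without GDF9. These H3K27ac lists cover 19.8% of the chromosomes with GDF9 and 20.3% with vehicle.

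The antibody against native SMAD2 sees the product of both Smad2 alleles. In GDF9-treated cells its lists covered 19.4% of the GDF9-only, 22.5% of the vehicle-only and 78.0% of the shared regions, and in vehicle-treated cells 21.6%, 26.1% and 83.9%. The lists of the SMAD3 antibody covered 27.8%, 37.3% and 93.6% of the same classes with GDF9, and 32.4%, 44.2% and 96.9% with vehicle. Counted in either replicate, the share was higher in the lists of vehicle-treated cells for each class and both antibodies, GDF9-only regions included. With a peak in both replicates, native SMAD2 covered 4.18% of GDF9-only regions with GDF9, against 3.37% with vehicle. The other classes and SMAD3 kept the order. In either replicate, the native SMAD2 lists cover 7.08% of the chromosomes with GDF9 and 7.40% with vehicle. Of the pairs that mix treatments, those with GDF9 replicate 1 had native SMAD3 peaks in GDF9-treated cells at 21.9% and 24.1% of their regions and those with GDF9 replicate 2 at 40.2% and 45.4%, so that the share at GDF9-only regions lay between them. Regions of a single list stood at 10.7%.

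**Figure D3:**
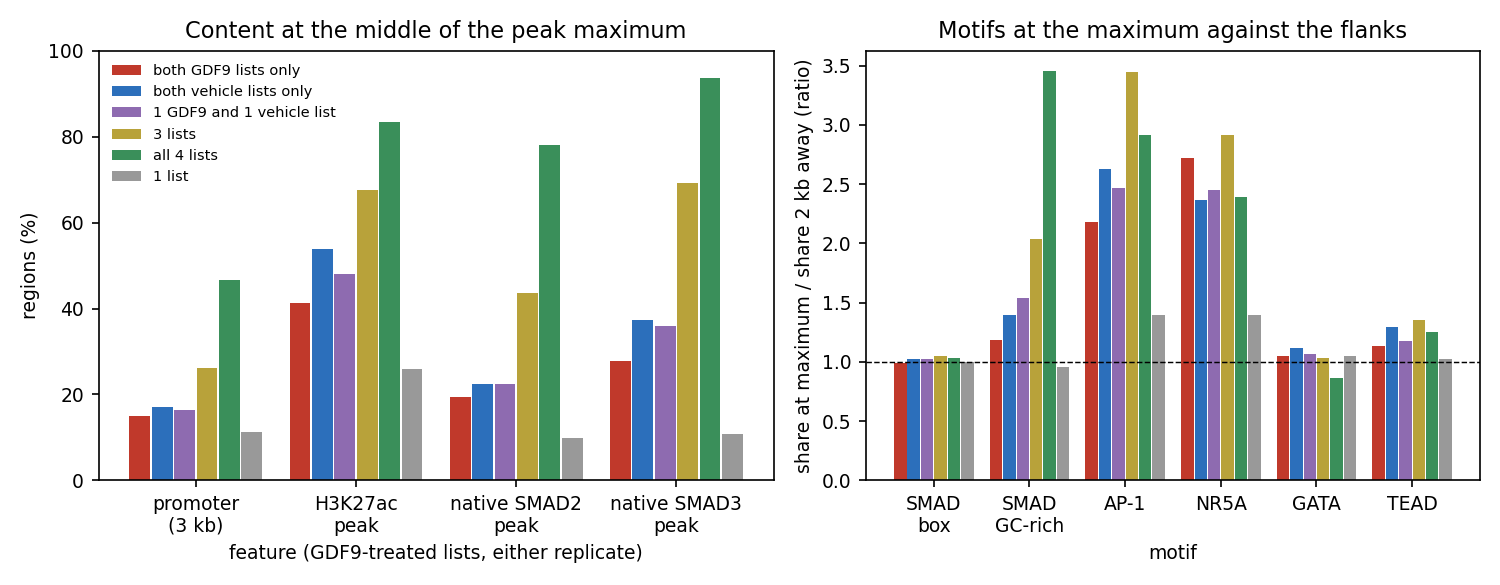
Shares of HA regions of each class whose middle lies at a promoter or under a peak of H3K27ac, native SMAD2 or native SMAD3 in GDF9-treated cells (percent), and the share of middle windows with a motif divided by that of windows 2 kb to either side. Shared regions lead in every share, from 46.6% at promoters to 93.6% under SMAD3 peaks, and AP-1 and NR5A motifs are above their flanks in all classes.

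Motifs were read in windows that reach 200 bp to each side of the middle of each region and 2 kb to either side, on both strands. The SMAD box CAGAC was as frequent at the middle as beside it, with 56.8% of GDF9-only windows against 57.4% of their flanks, 59.0% against 57.5% for vehicle-only regions, 61.5% against 59.4% for shared regions, and 57.2% at the middle of all regions. At 5 bases it is short enough to occur in most windows of this length. The AP-1 core TGANTCA was found in 25.3% of GDF9-only windows and 11.6% of their flanks, in 30.0% and 11.4% for vehicle-only regions, and in 34.5% and 11.8% for shared regions, against 21.7% at the middle of all regions. In each class this was more than at the flanks. Away from promoters the shared regions held it in 49.8% of windows, 4.05 times the share in their flanks. CAAGGTCA, the site of NR5A1 and NR5A2, orphan receptors that drive steroid-synthesis genes, was in 5.56% of GDF9-only windows and 2.04% of flanks, and in 6.11% and 2.58% for vehicle-only regions, against 4.22% at the middle of all regions. The GC-rich SMAD core GGCGC was in 8.40% of GDF9-only windows and 7.12% of flanks, but in 34.5% of shared windows and 10.0% of flanks, in 61.4% of the shared windows at promoters, and in 11.3% at the middle of all regions. AP-1 and NR5A sites were thus concentrated at the middle of both treatment-only classes, by 2.18 and 2.72 times over the flanks for GDF9-only and by 2.62 and 2.37 times for vehicle-only regions, and the SMAD box was not. A match is a description of the letters in the window.

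The signal of the 19406 shared regions was compared next. No region passed the adjusted p of 0.05 in limma with Benjamini-Hochberg adjustment for total signal, maximum signal or width (0% called in each). In deposited units the typical shared region had more total signal with GDF9, by a median of 0.28 on the log2 scale, with median totals of 564 and 835 units with GDF9, against 581 and 559 units with vehicle. This shift rested on GDF9 replicate 2, since replicate 1 lay between the vehicle lists. All further comparisons are relative to the median of the shared regions in each list. On the deposited scale the smallest adjusted p of limma was 0.0831, and 1461 regions had an unadjusted p under 0.05, of which 1441 were higher with GDF9. Without GDF9 replicate 1 limma called 1936 regions on that scale, without GDF9 replicate 2 it called 60, and without vehicle replicate 1 it called 1.

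Relative to that median, the GDF9 lists were not separated from the vehicle lists more than replicates from each other. The middle 90% of regions had a log2 difference of relative total signal, GDF9 over vehicle, from -0.53 to 0.64, with a median standard error of 0.36. Both GDF9 lists lay above both vehicle lists in 3232 regions (16.7%) and below them in 2987 (15.4%). An unadjusted p under 0.05 was reached by 771 regions, 425 of them higher and 346 lower with GDF9, and the smallest adjusted p of limma was 0.999. The standard deviation of the log2 difference over regions was 0.56 between GDF9 replicates 1 and 2, 0.48 between the vehicle replicates, and 0.46 to 0.57 between lists of opposite treatments.

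The maximum signal, which does not grow with width, gave a median log2 difference of 0.00 with a median standard error of 0.27, and 828 regions had an unadjusted p under 0.05. Leaving out 1 list led to 3 to 197 calls by limma for this measure, the most without GDF9 replicate 2. The bases covered in a region gave a median log2 difference of 0.02 with a median standard error of 0.45, and 823 regions had an unadjusted p under 0.05. Within shared regions the covered bases interleaved, at a median of 1830 and 2141 bp with GDF9 and 1904 and 2034 bp with vehicle.

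**Figure D4:**
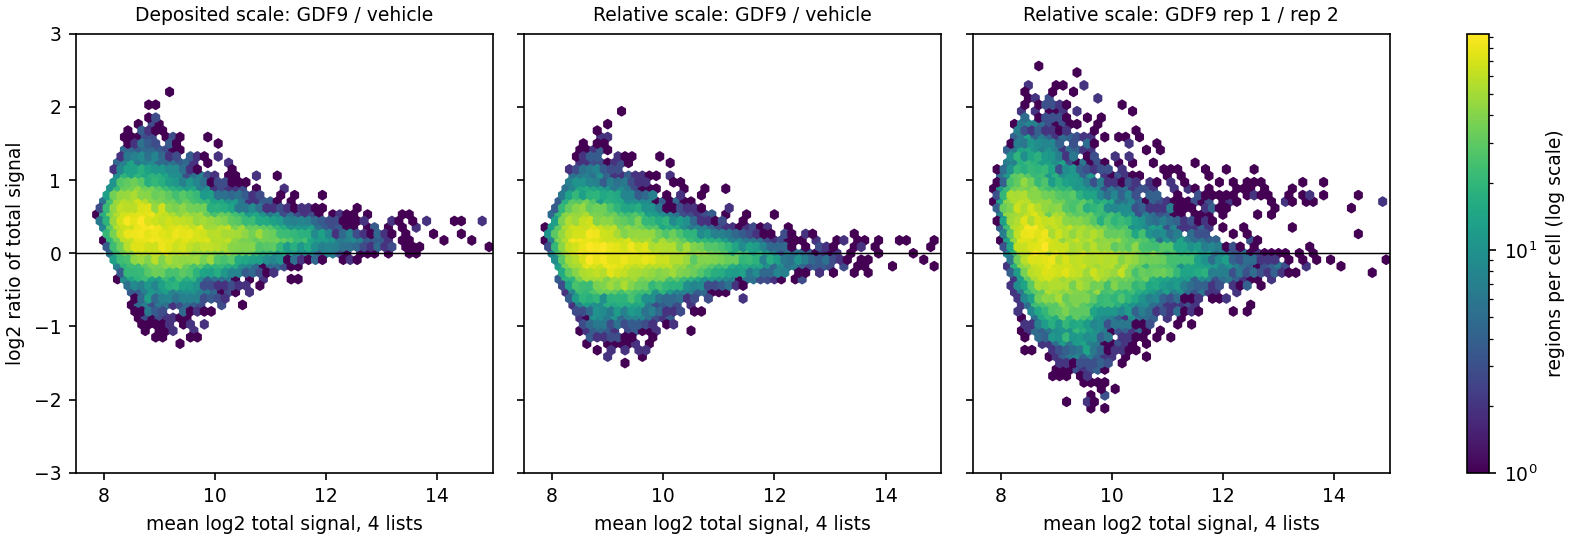
Log2 ratio of total signal against mean log2 total signal over the 4 lists in 19406 shared regions, colour giving the number of regions per cell on a log scale, with 12 regions above the plotted range. GDF9 over vehicle is shown on the deposited scale (median 0.28) and on the relative scale (median 0.01), and GDF9 replicate 1 over replicate 2 on the relative scale (SD 0.56), where single lists and not means of 2 lists are compared.

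The genes of the pathway and of granulosa cells were taken from 9 lists. Of the 125 genes found in the annotation, 72 (57.6%) had a shared HA region at a promoter, against 40% of all protein-coding genes. Genes with enough RNA to be tested had one more often, at 7885 of 12597 (62.6%), and 113 of the listed genes were among those. A GDF9-only region lay within the gene or up to 5 kb upstream in 17 genes (13.6%), against 5.11% of all protein-coding genes, and a vehicle-only region in 20 (16.0%), against 7.64%. In both treatment-only classes the listed genes were thus above all protein-coding genes. A longer gene offers more room for such a region, and the part of gene length was not tested. The 200 shared regions of these genes included 42 (21.0%) with both GDF9 lists above both vehicle lists and 22 of the 200 with both below, next to the 16.7% and 15.4% of all shared regions. The median log2 difference of relative total signal was 0.03 over them and 0.01 over all shared regions. None of the 200 was called by limma, and the smallest of their Benjamini-Hochberg adjusted p-values was 0.999.

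The 19 GDF9-only regions of the listed genes were low, at 9 to 19 fragments in GDF9 replicate 1 and 8 to 32 in GDF9 replicate 2. The 25 vehicle-only regions were 7 to 31 fragments high in vehicle replicate 1 and 6 to 23 in vehicle replicate 2. H3K27ac covered 15 of the 19 GDF9-only regions in GDF9-treated cells and 16 of them in vehicle-treated cells. The SMAD box was within 9 of the 19 windows and the AP-1 core within 2, and within 13 and 9 of the 25 vehicle-only windows.

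Among the receptors, the proteins that bind GDF9 and its relatives at the cell surface, 7 of 13 genes had a shared promoter region, 6 a GDF9-only region and 2 a vehicle-only region, next to 40%, 5.11% and 7.64% of all protein-coding genes. Of all genes tested for RNA, 62.6% had a shared promoter region, and gene length was not taken into account in these shares. Tgfbr1, a type I receptor that phosphorylates SMAD2 and SMAD3, had total signals of 1454 and 2366 units with GDF9 at its promoter (chr4:47350188-47356420), against 1953 and 1815 units with vehicle. Its relative log2 difference was -0.29 (SE 0.19). The GDF9-only region 9.70 kb downstream of the nearest annotated start site (chr4:47361614-47364003), whose SMAD box is printed above, had 292 and 309 units and was 9 fragments high in each GDF9 list. Bmpr1b, a type I receptor for bone morphogenetic proteins, held 2 GDF9-only regions in introns (chr3:141873249-141874976 and chr3:141913932-141916223), with 388 and 350 units in the one and 369 and 386 units in the other. Its promoter region (chr3:141928286-141932284) had 446 and 422 units with GDF9, against 273 and 182 units with vehicle, which do not overlap, with a relative log2 difference of 0.69 (SE 0.40, unadjusted p = 0.108 in limma).

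The remaining GDF9-only regions of receptors lay in introns of Tgfbr3, Acvr1, Acvr1c and Bmpr1a, with 266 to 403 units. Those in Acvr1 (chr2:58431971-58435500, 311 and 333 units) and Acvr1c (chr2:58320121-58321767, 309 and 281 units) had neither an H3K27ac peak nor a native SMAD2 or SMAD3 peak at their middle. Acvr1c, which encodes the type I receptor ALK7, had 4.03 and 3.87 normalized counts of RNA with GDF9, against 4.59 and 8.86 with vehicle, in the Smad3PA/PA cells. Bmpr2, a type II receptor through which GDF9 signals, had 1858 and 2803 units at its promoter with GDF9, against 2150 and 2141 units with vehicle. These overlap in deposited units, but relative to the median region both GDF9 lists lay below both vehicle lists. The relative log2 difference was -0.18 (SE 0.17). Bmpr2 also held a vehicle-only region in an intron with 272 and 194 units.

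Among the SMAD genes the promoter of Smad3 lay in the other direction. It had 406 and 804 units at its promoter (chr9:63754186-63760263) with GDF9, against 849 and 1088 units with vehicle. Both GDF9 lists were below both vehicle lists, and the relative log2 difference of -1.02 (SE 0.31) was the lowest of the 200 regions, with an unadjusted p of 0.0068 and a Benjamini-Hochberg adjusted p of 0.999 in limma. The gap was in width and not in height, with 1779 and 2952 bp covered with GDF9, against 3570 and 5827 bp with vehicle, and 17 and 33 fragments with GDF9, against 21 and 22 with vehicle. Its RNA was 605 and 537 normalized counts with GDF9, against 640 and 582 with vehicle, and was not called. Of the 8 genes 5 had a shared promoter region, next to 40% of all protein-coding genes and 62.6% of genes tested for RNA. Their 12 shared regions had a median relative log2 difference of -0.08. Of these regions 3 were lower in both GDF9 lists and 0 higher, next to 15.4% and 16.7% of all shared regions. Smad3 and Smad4 also held a vehicle-only region each, and no SMAD gene held a GDF9-only one, next to 7.64% and 5.11% of all protein-coding genes.

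Feedback inhibitors and direct targets of SMAD2 and SMAD3 were the most often bound of the larger lists, with a shared promoter region at 18 of 23 genes. Such a region was at 40% of all protein-coding genes and at 62.6% of genes tested for RNA. Skil, which encodes the SMAD corepressor SnoN, had the clearest set of all 3 classes. Its shared promoter region (chr3:31091583-31111939) had 3257 and 6185 units with GDF9, against 3995 and 3675 units with vehicle, with a relative log2 difference of -0.04 (SE 0.16). The GDF9-only region 18.5 kb downstream of the nearest annotated start site (chr3:31112491-31117442) had 690 and 718 units and was 12 and 14 fragments high, and the vehicle-only region 4.59 kb upstream of the gene (chr3:31089840-31091362) had 323 and 240 units and was 17 and 15 fragments high. Both treatment-only regions lie next to the broad shared one, and all 3 were under H3K27ac peaks with either treatment and under native SMAD2 and SMAD3 peaks.

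Ski, the close relative of Skil, had the second largest positive difference among the listed genes. Its promoter region (chr4:155219263-155222719) had 565 and 595 units with GDF9, against 268 and 184 units with vehicle, and 13 fragments in each GDF9 list, against 8 and 7 with vehicle. The groups did not overlap, and the relative log2 difference was 1.12 (SE 0.39), with an unadjusted p of 0.0147 and a Benjamini-Hochberg adjusted p of 0.999 in limma. Ski RNA was 1013 and 966 normalized counts with GDF9, against 1004 and 941 with vehicle, and was not called. Ldlrad4, a membrane inhibitor that sequesters SMAD2 and SMAD3, had 297 and 968 units at its promoter with GDF9, against 236 and 198 units with vehicle, with a relative log2 difference of 1.04 (SE 0.43, unadjusted p = 0.0337 in limma). Most of that difference came from GDF9 replicate 2.

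Nedd9, an adaptor protein of focal adhesions, had one of the highest promoter peaks of this list, 78 and 100 fragments with GDF9, against 105 and 102 with vehicle. The total there (chr13:41350801-41361327) was 3755 and 4941 units with GDF9, against 3482 and 3259 units with vehicle, and the relative log2 difference was 0.09 (SE 0.15). Its GDF9-only region, 30.8 kb downstream of the nearest annotated start site, which is inside the gene (chr13:41326208-41329654) had 314 and 471 units. Tgif1, a homeodomain corepressor of SMAD2, had 3542 and 5332 units at its promoter (chr17:70842428-70854794) with GDF9, against 3361 and 3621 units with vehicle, and a GDF9-only region 3.89 kb upstream (chr17:70855710-70857867) with 558 and 264 units. Klf10, a TGF-β-induced zinc finger factor, held a GDF9-only region 4.98 kb upstream (chr15:38303884-38307096) with 781 and 273 units and no H3K27ac peak. The GDF9-only regions of Tgif1 and Klf10 thus varied between the GDF9 replicates by more than the treatment differences at most shared regions.

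Among other feedback genes, Spsb1 and Fst overlapped between treatments and Bhlhe40 did not. Spsb1, which marks the type II TGF-β receptor for degradation, had 3527 and 8463 units with GDF9, against 5440 and 6212 units with vehicle. Fst, the activin-binding protein follistatin, had 633 and 1235 units with GDF9, against 817 and 1028 units with vehicle. Bhlhe40, a clock-linked repressor, had 2887 and 5034 units with GDF9, against 2239 and 2694 units with vehicle, with a relative log2 difference of 0.37 (SE 0.18) and no overlap. Smad7, the inhibitory SMAD that blocks the type I receptor, had 3 shared regions, none with its middle within 3 kb of a start site. Pmepa1 and Tgfbi, both well-known targets of the pathway, had no shared region.

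Ligands were sparsely bound, with a shared promoter region at 2 of 12 genes, next to 40% of all protein-coding genes. Inhba, which encodes the βA subunit of activin and inhibin, had 1 broad region over its upstream part (chr13:16004992-16036421) with 4656 and 7846 units with GDF9, against 3937 and 4171 units with vehicle. The groups did not overlap, and the relative log2 difference was 0.31 (SE 0.15, unadjusted p = 0.057 in limma). Inha, the α subunit of inhibin, had 785 and 2006 units at its promoter with GDF9, against 1489 and 1340 units with vehicle, which overlap.

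Genes of cumulus expansion had shared promoter regions at 8 of 14 members. This compares with 40% of all protein-coding genes and 62.6% of genes tested for RNA. Of their 14 shared regions, 1 had both GDF9 lists above both vehicle lists and 2 had both below, next to 16.7% and 15.4% of all shared regions. Their median relative log2 difference was -0.03. The higher region was the promoter of Ptx3 (chr3:66219131-66221019), which encodes pentraxin 3 of the cumulus matrix. It had 313 and 513 units with GDF9, against 267 and 194 units with vehicle, and a relative log2 difference of 0.55 (SE 0.37). Has2, the synthase of the hyaluronan that the matrix is made of, had 556 and 420 units with GDF9, against 592 and 196 units with vehicle. Ptgs2, the cyclooxygenase of ovulatory prostaglandin synthesis, had 552 and 796 units with GDF9, against 564 and 313 units with vehicle. Tnfaip6, which links hyaluronan to its partner proteins, had 557 and 778 units with GDF9, against 635 and 536 units with vehicle. Apart from Ptx3 these promoters overlapped between treatments, and all 4 had regions of 10 to 45 fragments. Egfr, the receptor for the epidermal growth factor-like signals that spread the ovulatory stimulus, held the GDF9-only region of this list, with 367 and 483 units.

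**Figure D5:**
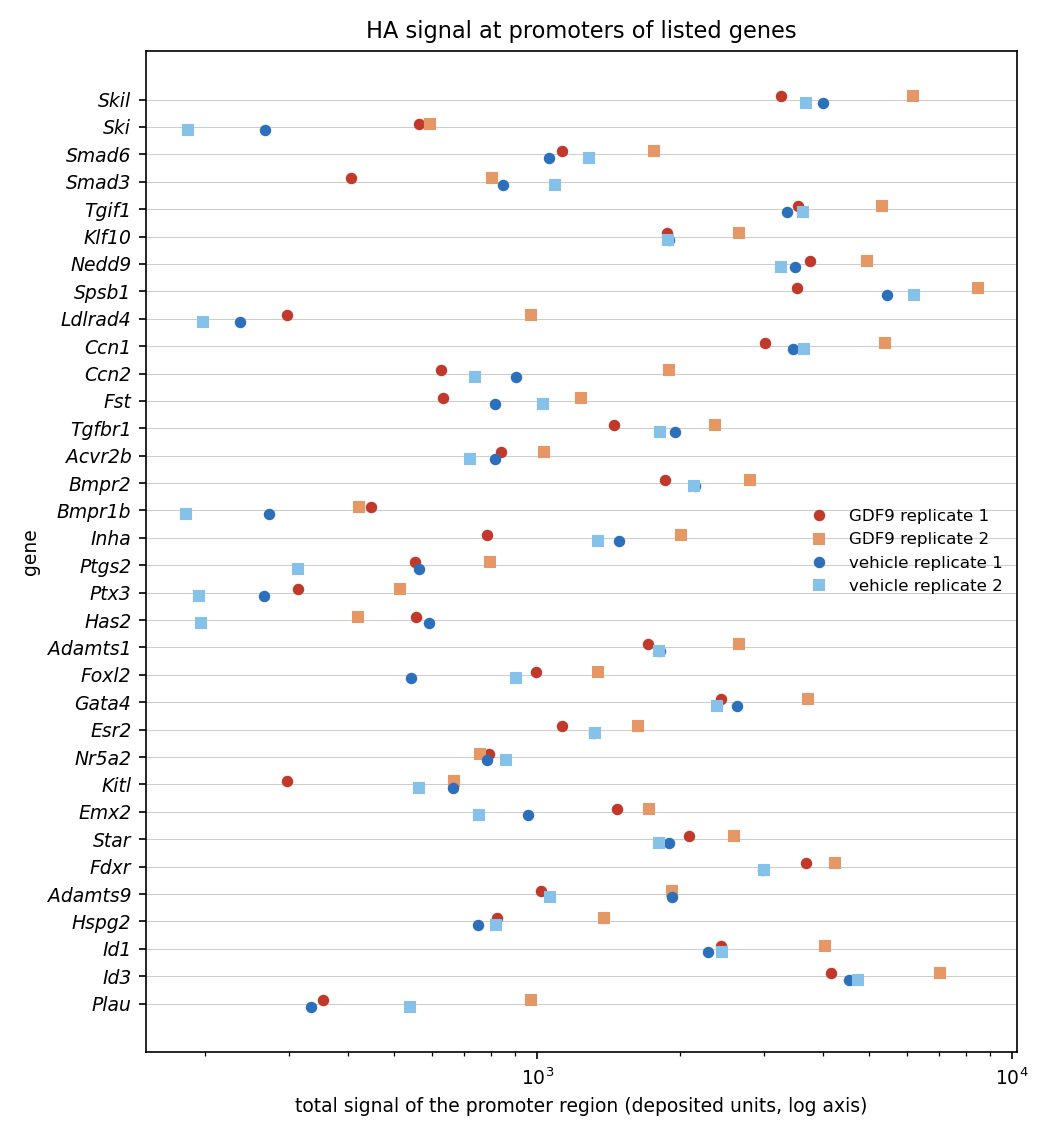
Total signal in deposited units (log axis) of promoter HA regions in each of the 4 lists for 34 of the listed genes. Ski and Bmpr1b are among the promoters where both GDF9 lists lie above both vehicle lists, Smad3 is an opposite case at 406 and 804 with GDF9 against 849 and 1088 with vehicle, and at others, such as Inha, the lists interleave.

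Factors of granulosa identity had shared promoter regions at 10 of 16 genes. The background was 40% of all protein-coding genes and 62.6% of genes tested for RNA. Their 35 shared regions split into 8 higher and 7 lower in both GDF9 lists, next to 16.7% and 15.4% of all shared regions. The region with the largest positive difference of all 200 was an intron of Gata4 (chr14:63265747-63269334), a factor needed for granulosa cell function. It had 842 and 876 units with GDF9, against 353 and 194 units with vehicle, and 15 and 14 fragments with GDF9, against 13 and 9 with vehicle. Its relative log2 difference was 1.45 (SE 0.41), with an unadjusted p of 0.0039 and a Benjamini-Hochberg adjusted p of 0.999 in limma. The gap was in width more than in height, since the region was covered over 2951 and 3465 bp with GDF9, against 1534 and 1179 bp with vehicle. The Gata4 promoter (chr14:63237852-63250985) had 2438 and 3720 units with GDF9, against 2631 and 2386 units with vehicle, and 2 other places in the gene were vehicle-only.

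Runx1, a runt-domain factor of granulosa cells, held 4 vehicle-only regions and 1 GDF9-only region. The vehicle-only regions had 246 to 405 units in vehicle replicate 1 and 197 to 384 units in vehicle replicate 2. At its promoter the total was 2085 and 3473 units with GDF9, against 1920 and 2094 units with vehicle. Emx2, a homeodomain factor of the developing gonad, had 1470 and 1717 units with GDF9, against 958 and 754 units with vehicle, with a relative log2 difference of 0.63 (SE 0.24, unadjusted p = 0.0233 in limma), while its maximum was 20 and 32 fragments with GDF9 and 22 and 40 with vehicle. Kitl, the kit ligand through which granulosa cells signal to the oocyte, lay in the other direction, at 297 and 669 units with GDF9, against 664 and 563 units with vehicle, with a relative log2 difference of -0.72 (SE 0.37). In deposited units the Kitl lists overlapped, and they separated relative to the median region. Its maximum was 13 fragments in each GDF9 list, against 10 and 13 with vehicle, and the region was covered over 1374 and 2534 bp with GDF9, against 3897 and 3589 bp with vehicle. Amhr2, the receptor for anti-Müllerian hormone, and Wt1, a zinc finger factor of the gonad, had no shared region and a vehicle-only region each, with 227 and 188 units and 215 and 194 units.

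Genes of steroid synthesis had shared promoter regions at 6 of 10 members, next to 40% of all protein-coding genes and 62.6% of genes tested for RNA. None of their 12 shared regions separated the treatments, next to 16.7% higher and 15.4% lower among all shared regions. Star, which carries cholesterol into mitochondria, had 2091 and 2593 units with GDF9, against 1898 and 1809 units with vehicle. Fdxr, the reductase that feeds electrons to mitochondrial P450 enzymes, had 3687 and 4242 units with GDF9, against 2982 and 2996 units with vehicle, and a relative log2 difference of 0.14 (SE 0.17). The deposited totals of Star and Fdxr were above those of vehicle in both GDF9 lists, by 0.33 and 0.40 on the log2 scale, next to the 0.28 of the typical region, and their relative totals overlapped. Prlr, the prolactin receptor, had no shared region and a GDF9-only one in an intron (chr15:10189546-10191648) with 308 and 291 units.

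Matrix and adhesion genes had the highest median among the larger lists, 0.18 on the log2 scale over 48 shared regions, of which 12 were higher and 4 lower in both GDF9 lists, next to 16.7% and 15.4% of all shared regions. Lama1, the laminin α1 chain, had 1351 and 2230 units in an intron (chr17:67729096-67738135) with GDF9, against 1038 and 890 units with vehicle, with a relative log2 difference of 0.58 (SE 0.22, unadjusted p = 0.0211 in limma). Hspg2, the basement membrane proteoglycan perlecan, had 778 and 1194 units over an exon (chr4:137498151-137501872) with GDF9, against 486 and 476 units with vehicle, with a relative log2 difference of 0.73 (SE 0.30, unadjusted p = 0.0324 in limma). The type IV collagen genes held 4 of the 19 GDF9-only regions. Col4a1 had 2 in introns, with 345 and 608 units and 331 and 534 units, Col4a2 had 1 with 371 and 797 units, and Col4a4 had the single one at a promoter (chr1:82588771-82591849), with 408 and 305 units. Of vehicle-only regions, Col4a1 had 1 and Col4a2 had 2. These genes lie head to head, and the region with 314 and 200 units counted for both.

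Genes of MAPK and bone morphogenetic protein signaling had a shared promoter region at 9 of 10 members, with no treatment-only region. Among all protein-coding genes, 40% had a shared promoter region, 5.11% a GDF9-only and 7.64% a vehicle-only region. Of genes tested for RNA, 62.6% had a shared promoter region. Id1 and Id3, inhibitors of bHLH factors and targets of SMAD1 and SMAD5, had 2437 and 4029 units and 4163 and 7043 units with GDF9, against 2287 and 2447 units and 4528 and 4747 units with vehicle. Their relative log2 differences were 0.14 (SE 0.17) and -0.04 (SE 0.15). Spry2, an inhibitor of receptor tyrosine kinase signaling, had 2354 and 3361 units with GDF9, against 1622 and 2113 units with vehicle, with a relative log2 difference of 0.33 (SE 0.19). Plau, the urokinase plasminogen activator, had 353 and 970 units with GDF9, against 333 and 541 units with vehicle.

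The strongest shared regions were repeats. The 5 with the highest mean total lie at Gm10800 and Gm10801 on chromosome 2, Gm10718 on chromosome 9, Gm21738 on chromosome 14 and at chr12:3109265-3111109, and at least 57.6% of the bases at their middle are marked as repeats. At Gm10800 (chr2:98666080-98667456) the highest point reached 1692558 and 1746210 fragments with GDF9, against 1540929 and 1366438 with vehicle. The 10 highest peaks of a list held 51.0% and 43.5% of its summed total signal with GDF9, against 46.6% and 43.1% with vehicle. Sums of signal over a list were therefore not used, and medians are given throughout.

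The strongest treatment-only regions were modest beside these. Each is named by the protein-coding gene with the nearest start site, which need not be the gene that holds it. The GDF9-only region with the highest mean total lay in an intron, nearest to Gm11146 (chr16:77511741-77516694), with 373 and 1254 units. The next were an intergenic region nearest to Twistnb with 604 and 954 units and 1 nearest to Gm21083 with 1068 and 472 units. Then came 1 lying 84.3 kb from Bmp2 (chr2:133465193-133471177) with 872 and 624 units, and 1 nearest to Dhx40 with 833 and 593 units. The vehicle-only regions with the highest totals were nearest to Hpgds with 532 and 783 units, Wasf1 with 646 and 635 units and Ide with 830 and 441 units. Another lay at the promoter of Fndc3a with 751 and 460 units, and 1 nearest to Nit2 had 500 and 700 units. None of these genes belongs to the lists apart from Bmp2, a ligand of the family, and all 10 regions were 8 to 22 fragments high.

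The antibodies against native SMAD2 and SMAD3 were used on the same line, and their lists served for comparison. For native SMAD2, 4194 regions were in both GDF9 lists and neither vehicle list, 22.8% of the regions in both GDF9 lists, against 8.69% for HA. For SMAD3 these were 2296 regions, or 8.96%. Vehicle-only regions numbered 3836 for native SMAD2 and 4226 for SMAD3, or 19.8% and 13.3% of the regions in both vehicle lists, against 10.0% for HA. Each pair that mixes treatments gave 3525 to 3810 regions for native SMAD2 and 2403 to 3478 for SMAD3. All 4 lists of native SMAD2 shared 5.82% of its regions, against 13.4% for SMAD3 and 13.3% for HA. In regions with a peak in all 8 lists, the GDF9 difference of relative total signal was called different between HA and native SMAD2 at none of 9513 regions (0% called in limma, 434 with an unadjusted p under 0.05) and between HA and SMAD3 at none of 15120 (0% called, 634 with an unadjusted p under 0.05). The smallest Benjamini-Hochberg adjusted p of these interaction tests in limma was 0.984 for SMAD2 and 1.00 for SMAD3. The regions tested had a median standard error of 0.48 and 0.46 on the log2 scale.

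RNA-seq of GDF9- and vehicle-treated cells, from the Smad3PA/PA line and not from Smad2HA/+, served as another readout of genes with an HA region. Of 12597 genes tested by limma on log2(normalized count + 1), 307 (2.44%) were higher and 89 (0.707%) lower with GDF9 (Benjamini-Hochberg adjusted p under 0.05, with at least 0.18 of change on the log2 scale). Of the 7885 tested genes with a shared HA region at a promoter, 188 (2.38%) were higher and 65 (0.824%) lower. Of the 114 genes with a GDF9-only promoter region, 4 (3.51%) were higher and 1 lower, and of the 216 with a vehicle-only promoter region, 5 (2.31%) were higher and 0 lower (13 of these genes were lower at an unadjusted p under 0.05 in limma, and edgeR on the recovered reads also called 0). Genes with none of the 3 classes numbered 4463, with 113 (2.53%) higher and 23 lower. In bulk RNA, fewer cells of a type and less RNA per cell cannot be told apart. All classes were close to the background for higher RNA, and the counts at treatment-only promoters are small. Without vehicle replicate 1 limma called 194 genes higher and 21 lower.

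Examples at GDF9-only promoters, chosen after their values were seen, were Spon1 and Wnt4. Spon1, which encodes the matrix protein spondin 1, rose to 177 and 175 normalized counts with GDF9, against 110 and 103 with vehicle (log2 difference 0.72, SE 0.13, Benjamini-Hochberg adjusted p = 0.000425 in limma). Wnt4, a signal of ovary formation, fell to 569 and 565 normalized counts with GDF9, against 682 and 656 with vehicle (log2 difference -0.24, adjusted p = 0.0343 in limma with Benjamini-Hochberg adjustment).

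Of the 113 listed genes tested, 17 had higher and 8 lower RNA with GDF9, next to 2.44% and 0.707% of all genes, and these lists were chosen with earlier results of these data known. Among the feedback genes Nedd9 rose to 4129 and 4112 normalized counts with GDF9, against 3274 and 3270 with vehicle (log2 difference 0.33, Benjamini-Hochberg adjusted p = 6.2e-07 in limma), while the HA signal at its promoter, relative to the median region, overlapped between treatments. Ldlrad4 rose to 185 and 223 normalized counts, against 140 and 121 with vehicle, and its promoter was among those with more HA signal in both GDF9 lists. Pmepa1, Spsb1 and Fst also rose, by 0.40, 0.27 and 0.37 on the log2 scale. Pmepa1 did so without a shared HA region, and the HA lists overlapped at Spsb1 and Fst. The called feedback genes numbered 5 of the 22 tested, all higher, next to the same 2.44% of all genes.

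Of the 20 matrix and adhesion genes tested, 4 had higher and 2 lower RNA. Lama1 and Hspg2 had higher RNA, and each had an HA region that was higher in both GDF9 lists, among 5 and 3 shared regions. Lama1 had 13370 and 13123 normalized counts with GDF9, against 9968 and 9840 with vehicle (log2 difference 0.42). Hspg2 had 17968 and 16388 with GDF9, against 14622 and 14437 with vehicle (log2 difference 0.24). Lama1 also held a vehicle-only region with 373 and 251 units, and the relative totals of the Hspg2 promoter region overlapped between treatments. Col4a4, with its GDF9-only promoter region, rose by 0.21 on the log2 scale, to 2723 and 2840 normalized counts with GDF9, against 2463 and 2334 with vehicle. Kitl, whose promoter had less relative total but not less maximum HA signal with GDF9, fell by 0.30 on the log2 scale. Prlr fell by 0.34 with a GDF9-only region in its intron, and Ptx3 rose by 0.85 with more HA signal at its promoter in both GDF9 lists. Gata4, Ski, Ldlrad4 and Smad3 held the listed regions with the largest relative log2 differences in either direction, and of these genes Ldlrad4 had called RNA and the other 3 did not. RNA of Esr2 rose by 0.33 on the log2 scale, while a promoter region of this gene was lower in both GDF9 lists relative to the median region. The relative log2 difference there was -0.23 (SE 0.21). RNA of Adamts5 and Adamts9 fell by 0.21 and 0.55, and their relative totals at the promoter overlapped between treatments. Cases of both kinds were present, and no relation between HA signal and RNA was tested.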

How the data were processed

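CUT&RUN reads were aligned by the authors to mm10 with Bowtie2. The signal deposited for each peak is coverage multiplied by a constant and divided by the E. coli spike-in fragments of the library. Peaks were called per sample with SEACR (stringent), and whether IgG was the control is not given in the sources used here. The deposited RNA signal values are normalized counts, that is, reads per gene divided by 1 size factor per library. Of that table, 25865 genes had values and 3 columns without a name were not used. All recovered RNA values were whole reads (100% within 0.05), 8827825 to 11416005 per library.

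Peaks of chromosomes 1 to 19 and X were kept, which left out 161 and 161 peaks with GDF9 and 181 and 170 with vehicle. Overlap was at least 1 bp. Signals were fitted as log2 values with limma 3.58.1 (trend) in R 4.3.3, without covariates, and called at a Benjamini-Hochberg adjusted p under 0.05. For RNA a pseudocount of 1 and a mean of at least 10 were used, and edgeR 4.0.16 on the recovered reads served as an alternative. List summaries were compared by exact permutation tests (scipy 1.17.1), two-sided. The fits were tested on simulated data. In the limma fits the planted effects were many times the spread between replicates, so this does not show the power for smaller effects. Regions named in the text are those of the listed genes, the 5 strongest of each class, and up to 10 called regions in each direction, of which there were none. Symbols of 97.5% of the tested RNA genes matched GENCODE vM21. The members and the gene lists were chosen with earlier results of these data known. Alternatives were other overlaps, thresholds, list sizes, promoter widths, pseudocounts and filters, a term for the replicate number, and each list left out in turn.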

Additional observations from a re-analysis of the deposited data

Results flagged for a closer look

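Peak number and width moved in opposite directions for the HA antibody and the antibody against native SMAD2, which see the same protein in the same line, with both GDF9 lists on one side of both vehicle lists in each case. The difference between the antibodies was not tested. Peaks per list, GDF9 minus vehicle, were -2480.5 for HA and 11714 for native SMAD2, from 60252 and 62931 peaks with GDF9, against 64461 and 63683 with vehicle for HA, and 74302 and 71326 with GDF9, against 61706 and 60494 with vehicle for SMAD2. Median width, GDF9 minus vehicle, was 132.5 bp for HA and -359 bp for native SMAD2, whose lists had medians of 1326 and 1334 bp with GDF9, against 1691 and 1687 bp with vehicle. The lowest total signal of a list moved with both: it was 5919 and 5883 fragment-bases with GDF9, against 5025 and 5070 with vehicle for HA, and 4268 and 4401 with GDF9, against 5629 and 5622 with vehicle for SMAD2. The SMAD3 lists had minima of 6050 and 4097 fragment-bases with GDF9, against 4715 and 5342 with vehicle, and their median widths of 1784 and 1265 bp with GDF9, against 1460 and 1588 bp with vehicle ran in the same order as these minima in all 4 lists. The part of the threshold in the counts and widths was not tested for HA, SMAD2 or SMAD3.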

How the results depend on the processing

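The count of shared regions was within 1.5 times of 19406 under every alternative run but the demand that 50% of both peaks overlap, and called regions stayed at 0 for width, for relative total signal apart from 1 region noted next, and for the comparisons with native SMAD2 and SMAD3 under every alternative run for each. Where values moved, the cause was not tested. With 1 list left out, GDF9-only regions ranged from 3309 to 31010 and vehicle-only regions from 3995 to 28431, which by construction asks for 1 list in place of 2 in the group cut short. Calls by limma then ranged from 0 to 1936 (without GDF9 replicate 1) for total signal in deposited units and from 3 to 197 (without GDF9 replicate 2) for maximum signal, and 1 region was called in relative total signal without GDF9 replicate 1 among regions of the other 3 lists (chosen after seeing the data).

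Common minima, also chosen after seeing the data, gave 1125 vehicle-only regions in fragment-bases, and 3777 GDF9-only and 282 vehicle-only regions in deposited units, so that GDF9-only minus vehicle-only regions was 1830 and 3495, reversed from the difference with all peaks. The top 50% of each list gave 660 GDF9-only and 1427 vehicle-only regions, and overlap of 50% of both peaks gave 4527 vehicle-only and 9292 shared regions and a difference of -1712. The mean share of peaks met was 68.5% within and 69.0% between treatments in the top 50%, and 31.4% and 31.9% with 50% of both peaks.

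In the top 50%, promoters held 22.4% of GDF9-only, 24.9% of vehicle-only and 47.6% of shared regions, H3K27ac 53.8%, 67.3% and 84.6%, native SMAD2 42.4%, 39.4% and 81.8%, and AP-1 40.3%, 40.2% and 35.3%, with CAGAC in 59.7% of GDF9-only windows. Promoters of 1 kb held 7.12%, 9.28% and 38.5%, and H3K27ac in both replicates 34.0%, 44.9% and 78.3%.

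For RNA, leaving out 1 library gave 194 (without vehicle replicate 1) to 365 higher and 21 (without vehicle replicate 1) to 218 (without GDF9 replicate 2) lower genes, of which genes with a shared promoter region were 108 to 234 and 14 to 168. Genes with a GDF9-only promoter region gave 0 to 1 lower, and those with a vehicle-only one 1 to 3 higher and 0 to 2 lower. Without the filter on low genes limma called 120 higher and 2 lower, of which 2 higher and 1 lower had a shared promoter region, 0 higher and 0 lower a GDF9-only one and 0 higher a vehicle-only one. With 1 kb promoters 0 GDF9-only and 3 vehicle-only genes were higher. On recovered reads edgeR called 323 higher and 83 lower.

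Same-numbered lists shared only a number (correlation of their deviations 0.07 over 2 pairs). The replicate block gave 2 calls in maximum signal, 142 lower RNA genes and 103 of these with a shared promoter region, and moved no other count by over 1.5 times. Peaks of 5 fragments are near the floor of these lists, so weak binding in 1 treatment would not be detectable, and with 2 lists against 2 the exact test cannot go below 0.333.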
